A study of Mus musculus with 768 samples.

Results

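Transcripts of 9 genes for neuropeptides and peptide hormones, Penk, Cartpt, Vip, Sst, Sct, Npy, Gal, Cck and Adm, were followed in single neural crest-derived cells of the mouse sympatho-adrenal anlage. They are 9 of the 23420 gene symbols counted, and all 9 were found. They were chosen by the values described here, that is, by which cell class and what share of its cells read each gene and which of them met in 1 cell, so these levels and shares are a description without a test. Cells came from anlagen of Wnt1-Cre/R26Tomato embryos of age E12.5 or E13.5 and were handled with the Smart-seq2 protocol. All cells thus carry Wnt1-Cre and the Tomato reporter, which marks descendants of cells in which the Wnt1 driver was active, mainly the neural crest. Each age is 1 plate with 1 cell per well. No animal is named in the labels, so an age counts as 1 sample without replicates, and age, litter and plate cannot be told apart.

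Neuropeptides and peptide hormones are cut out of longer precursor proteins, packed with chromogranins into dense-core granules, and act mostly on G protein-coupled receptors. Chromaffin cells of the adrenal medulla store enkephalins, neuropeptide Y, galanin and adrenomedullin together with catecholamines. Sympathetic neurons are mostly noradrenergic, but a minority turns cholinergic and is known for vasoactive intestinal peptide, while cholecystokinin and secretin are best known as hormones of the gut.

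Wells with at least 50000 reads on genes were kept, 380 at E12.5 and all but 13 at E13.5. They held 66289 to 390317 reads (median 280642) at the earlier age and 54463 to 344318 (median 259683) at the later one. Here and below, paired values give E12.5 first. Cells were grouped without the 9 genes and named by markers: Schwann cell precursor-like (SCP-like, glia on the nerve; 77 and 82 cells), bridge-like (marked by genes such as Htr3a and Thbd; 71 and 49), chromaffin-like (96 cells, then 2 clusters of 83 and 35) and sympathoblast-like (immature sympathetic neurons; 36 cells, then 2 clusters of 80 and 42). At E12.5 an intermediate cluster of 70 cells had nearly equal sympathoblast and chromaffin scores, and 30 cells stayed unnamed. Levels are reads of a gene scaled to an equal total of reads on genes per cell or class (CPM). The 10 chromaffin markers summed to 23267 and 35290.4 CPM in chromaffin-like cells and 5165 and 4314 CPM in sympathoblast-like cells, and Pnmt, the enzyme that makes adrenaline, had 0 reads in E12.5 chromaffin-like cells. Of the markers of other cell types, the 6 genes of adrenal cortex summed in the named classes to at most 21.1 CPM, those of endothelium, red blood cells, immune cells and sensory neurons to at most 13.1, 9.86, 10.8 and 7.10 CPM, and the highest values of the melanocyte and mesenchyme lists, 339.7 and 915 CPM, were in E13.5 SCP-like cells. The sexes, read from Xist and Y-linked genes, were spread unevenly. At E13.5 chromaffin-like cells held 89 male and 26 female cells and sympathoblast-like cells 31 and 87, against 74 and 20 and then 22 and 12 at E12.5. These 2 classes thus came from male and female embryos in different proportions at E13.5. The part of this in the class differences was not tested, and levels within each sex are given where they differ most.

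RefSeq promoter windows (table of build GRCm38.p6, another build than that of the counts) were matched for 8 of the 9 genes, all but Penk. The windows below run 5′ to 3′ from 130 to 11 bases before the annotated start. They are shown for the 3 genes that met in sympathoblast-like cells and the 2 that led in bridge-like cells. Capitals mark the letters TGACG, on the reverse strand CGTCA, or the palindrome that holds them, which the cyclic AMP-responsive factor CREB is known to bind, and the TATA box letters TATAAA.
Cartpt, chr13:99900694-99900813, minus strand: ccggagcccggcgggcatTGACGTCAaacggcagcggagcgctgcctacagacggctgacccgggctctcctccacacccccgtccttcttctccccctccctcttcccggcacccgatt
Vip, chr10:5639088-5639207, plus strand: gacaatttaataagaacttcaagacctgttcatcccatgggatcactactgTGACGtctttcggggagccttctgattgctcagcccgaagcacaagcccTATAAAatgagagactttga
Sst, chr16:23890855-23890974, minus strand: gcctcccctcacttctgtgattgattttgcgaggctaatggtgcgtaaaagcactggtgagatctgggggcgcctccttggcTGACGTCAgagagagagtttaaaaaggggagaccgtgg
Sct, chr7:141279144-141279263, minus strand: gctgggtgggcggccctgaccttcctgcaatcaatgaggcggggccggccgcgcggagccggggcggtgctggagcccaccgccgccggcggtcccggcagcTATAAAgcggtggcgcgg
Cck, chr9:121495705-121495824, minus strand: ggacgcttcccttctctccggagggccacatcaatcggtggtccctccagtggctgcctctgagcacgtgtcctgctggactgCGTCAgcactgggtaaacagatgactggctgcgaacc
TGACGTCA stood 48 bases before the start of Sst and further upstream in the window of Cartpt. Of 32851 mouse promoter windows of 300 bases, 588 (1.79%) held it. TGACG without the rest of the palindrome stood 79 bases before the start of Vip and, on the reverse strand, 47 bases before that of Cck, and 20.81% of all windows held TGACG on either strand, palindromes included. TATAAA stood 28 bases before the start of Sct and 30 bases before that of Vip, and 13.62% of all windows held it. The windows of Npy and Adm held none of these motifs, and that of Gal held TGACG 19 bases after the start. A match describes these letters and is no sign of binding.

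A cell is said to read a gene with at least 2 reads. The level of a class is its summed reads as CPM with an exact Poisson 95% interval, and shares carry exact Clopper-Pearson 95% intervals. Where no cell read a gene, or both genes of a pair, the limit in its place is 3 cells of the number of cells. These intervals cover counting error only: reads carry no molecular identifiers, and the spread between cells and between animals does not enter the CPM intervals. Median depth of the classes lay between 275240 and 290140 reads at E12.5 and between 246969 and 268160 at E13.5, so 1 read was worth about 3.56 and 3.85 CPM in the median cell. SCP-like cells, with median depths of 280392 and 263853 reads, serve as the reference for neuronal and endocrine peptides.

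Adm, Penk, Npy and Gal led in chromaffin-like cells. Adm encodes adrenomedullin, a vasodilator peptide, and was read by nearly the whole class. Per cell it ran from 0 to 1080.3 CPM with a median of 349.2, then from 0 to 1780.3 CPM with a median of 479. The class levels were 346.6 CPM (339.5 to 353.8) and 543 CPM (535 to 552), and 86.5% (77.96 to 92.6) and 94.1% (88.2 to 97.6) of the class read it. The highest cells of the 2 ages did not stand apart: the 10 and 12 cells with most reads held 26.8% and 26.9% of the class's Adm reads, where those of Penk held 66.96% and 59.7%. In sympathoblast-like cells 41.7% and 31.1% of cells read Adm, at 52.8 and 39.3 CPM. In SCP-like cells 0 of 77 cells (at most 3.90%) and 2 of 82 cells did.

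Penk encodes proenkephalin, the precursor of the opioid enkephalins, and split the class into readers and non-readers. At E12.5 46 chromaffin-like cells read it (47.9%, 37.6 to 58.4), and at E13.5 57 did (48.3%, 39.01 to 57.7). Among readers it ran from 7.10 to 3944 CPM with a median of 336.2, then from 17.02 to 4378 with a median of 324.7. The class levels, 301.3 CPM (294.7 to 308.02) and 318.2 CPM (311.8 to 324.7), differed by 0.08 on the log2 scale. Outside the class Penk differed more between ages. Bridge-like cells had 14.99 and 137.2 CPM, with 8.45% and 22.4% of cells reading it. The E12.5 intermediate cluster had 144.1 CPM in 37.1% of its cells. In SCP-like cells 5.19% read it at E12.5 and 0 of 82 (at most 3.66%) at E13.5.

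Npy is the gene of neuropeptide Y, a cotransmitter of noradrenaline, and Gal that of galanin. Both stood higher at the later age. Npy was read by 36 chromaffin-like cells at E12.5 (37.5%, 27.8 to 47.97) and by 88 at E13.5 (74.6%, 65.7 to 82.1), with class levels of 116.2 CPM (112.1 to 120.4) and 469.7 CPM (462 to 478). The highest E13.5 cell, at 10391 CPM, held 23.4% of the reads, and without the highest cell of each age the levels were 106.1 and 363.9 CPM. Npy was also read by 33.3% and 55.7% of sympathoblast-like cells, at 45.4 and 143.1 CPM, and by 2.60% and 13.4% of SCP-like cells, at 4.61 and 20.3 CPM. The 71 E12.5 bridge-like cells had no Npy read at all, which allows up to 4.23% of cells.

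Gal was read by 29 (30.2%, 21.3 to 40.4) and 47 (39.8%, 30.9 to 49.3) chromaffin-like cells. Its class levels were 31.8 CPM (29.6 to 33.98) and 92.9 CPM (89.5 to 96.5). The highest E12.5 cell held 32.5% of the reads, and without it the level was 21.6 CPM. At E12.5 Gal was spread over classes, with 18.4 CPM in bridge-like, 8.78 CPM in SCP-like and 47.4 CPM in intermediate cells, the last above the chromaffin-like level. At E13.5 chromaffin-like cells held 83.1% of its reads, against 36.1% at E12.5.

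**Figure D1:**
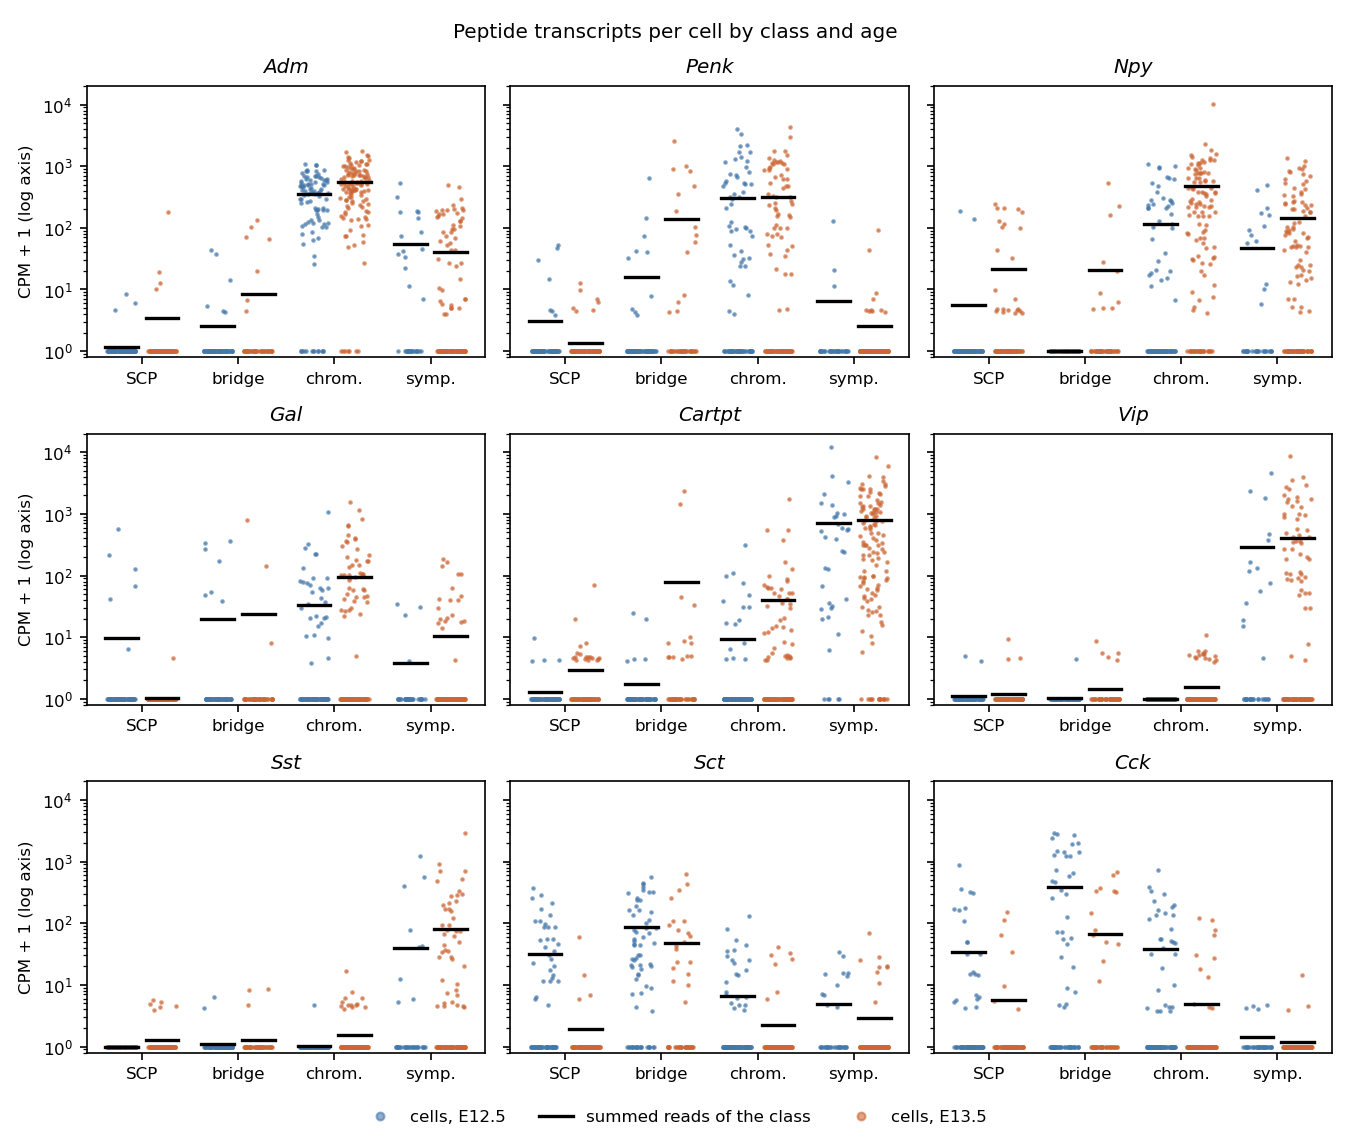
Level of each gene in every kept cell of the 4 named classes at E12.5 (blue) and E13.5 (orange), as CPM plus 1 on a log axis; a black line is the level of the summed reads of the class. Adm forms a narrow cloud in chromaffin-like cells, Vip and Sst are high almost only in sympathoblast-like cells, and most other genes split a class into cells at 0 and cells well above it.

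Cartpt, Vip and Sst led in sympathoblast-like cells. Cartpt encodes the CART peptide, a neuropeptide of sympathetic and central neurons. Per cell it ran from 0 to 11994 CPM with a median of 246.01, then from 0 to 8299 CPM with a median of 292.97. It was read by 80.6% (63.98 to 91.8) and 87.7% (80.5 to 92.95) of the class, whose levels were 698 CPM (682 to 715) and 783 CPM (773 to 793). Most of the class thus read Cartpt at both ages. In chromaffin-like cells it had 8.23 and 39.8 CPM, with 12 and 33 cells reading it. In bridge-like cells it had 0.757 and 77.8 CPM, the latter from 5 readers among 49 cells. Of SCP-like cells 1.30% and 3.66% read it.

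Vip, for vasoactive intestinal peptide, and Sst, for somatostatin, an inhibitory peptide, had the highest shares of their reads in 1 class. Sympathoblast-like cells held 99.9% and 99.8% of all Vip reads and 98.97% and 98.97% of all Sst reads. Vip was read by 13 (36.1%, 20.8 to 53.8) and 51 (41.8%, 32.9 to 51.1) of these cells. Among its readers it ran from 14.3 to 4546 CPM (median 129.6), then from 6.69 to 8537 CPM (median 366.7). A minority of the class carried each gene. Sst was read by 7 (19.4%, 8.19 to 36.02) and 35 (28.7%, 20.9 to 37.6) cells, from 11.5 to 1221 CPM (median 77.1), then from 9.37 to 2925 CPM (median 94.2). In the other 3 named classes, 0 cells read Vip and 0 read Sst at E12.5, for example 0 of 96 chromaffin-like cells (at most 3.12%). At E13.5 1 SCP-like and 1 chromaffin-like cell read Vip, and 1 chromaffin-like cell read Sst.

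The class levels of Vip and Sst rest on few cells. Vip stood at 288.7 CPM (278.2 to 299.5) and 408 CPM (401 to 415), but the highest E12.5 cell held 52.6% of the reads. Without the highest cell of each age the levels were 141.6 and 338.5 CPM, and the log2 difference between ages was 1.25 in place of 0.50. Sst stood at 39.4 CPM (35.5 to 43.5) and 79.96 CPM (76.8 to 83.2). Without the highest cells it stood at 30.8 and 55.5 CPM, a log2 difference of 0.83 in place of 1.004. One cell per age thus decides whether Vip and Sst pass a 2-fold line between the ages.

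Sct and Cck led in bridge-like cells, and the class level of both was lower at E13.5, that of Sct by less than 2-fold. Sct, the gene of secretin, ran from 0 to 563 CPM with a median of 20.96 in the 71 E12.5 cells, and from 0 to 625 CPM with a median of 0 in the 49 E13.5 cells. It was read by 67.6% (55.5 to 78.2) and 38.8% (25.2 to 53.8) of the class, at 86.1 CPM (82.03 to 90.3) and 46.3 CPM (42.5 to 50.4). The highest E13.5 cell held 34.5% of the reads, and without it the level was 31.1 CPM. Sct was spread widely at E12.5. Of SCP-like cells 37.7% (26.9 to 49.4) read it then and 1.22% (0.0309 to 6.61) later, at 30.2 and 0.929 CPM, so SCP-like cells are no background reference for it at E12.5. The E12.5 readers lay mostly in 1 of 2 SCP-like clusters. It had 28 readers among the 50 cells of the cluster led by Rgcc, Mmd2 and Igfbp3, whose second highest marker score was that of bridge cells, and 1 among the 27 cells of the cluster led by Prss12 and Egfl8. The single SCP-like cluster at E13.5 was also led by Prss12, so the clusters that make up this class differed between ages. In the E12.5 unnamed cluster 17 of 30 cells read Sct.

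Cck encodes cholecystokinin and differed most between ages among the 9 genes in their leading classes. It was read by 30 (42.3%, 30.6 to 54.6) and 13 (26.5%, 14.9 to 41.1) bridge-like cells. Among readers it ran from 6.59 to 2870.3 CPM (median 531), then from 10.7 to 668 CPM (median 145.8), so the ranges overlapped. Class levels were 391 CPM (382.2 to 399.7) and 66.7 CPM (62.1 to 71.5), a log2 difference of -2.53, which was -2.74 without the highest cell of each age. SCP-like cells had 33.7 and 4.64 CPM and chromaffin-like cells 36.95 and 3.81 CPM. The E12.5 intermediate cluster came close to bridge-like cells, with 291.1 CPM (283.3 to 299.03) in 45.7% of its cells. Sympathoblast-like cells had 4 and 6 reads of Cck in all.

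**Figure D2:**
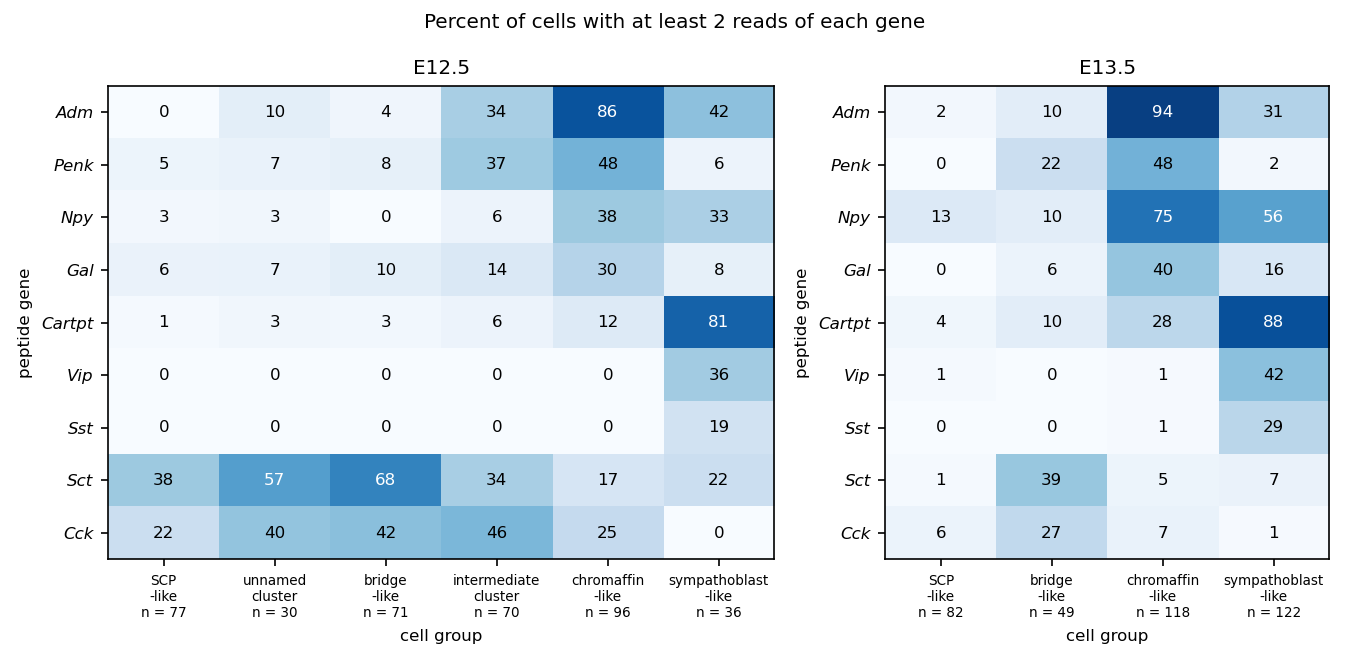
Percent of cells of each group with at least 2 reads of each gene, at E12.5 (left, 6 groups) and E13.5 (right, 4 groups), with darker blue for higher shares and the number of cells below each column. Adm in chromaffin-like and Cartpt in sympathoblast-like cells pass 80% at both ages, Vip and Sst are near 0 outside sympathoblast-like cells, and Sct is spread over more groups at E12.5 than at E13.5.

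All 9 genes had the same leading class at both ages. The share over all genes is not given beside this count, so nothing is read from it. At E12.5 6 of the 9, all but Sct, Npy and Gal, stood at least 4-fold above every other named class, against 5.84% of 12162 genes of at least 5 CPM. At E13.5 6 of the 9 did, all but Penk, Npy and Gal, against 7.47% of 12500 genes. The genes were chosen by these values, so nothing is read from the excess, and the E12.5 intermediate cluster is not among the classes compared. With 1 CPM added to both sides, folds over the next class ran from 1.69 for Gal to 263.8 for Vip at E12.5, and from 2.31 for Penk to 264.7 for Vip at E13.5. Just outside the 4-fold line stood Gal at E13.5, with 3.94, and the nearest inside it was Adm at E12.5, with 6.46. The leading class of Gal at E12.5 depended on the grouping. It was bridge-like at clustering resolution 0.5 and with both ages clustered together, and sympathoblast-like at resolution 2.

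Between ages, 4 of the 9 genes differed at least 2-fold in their leading class. Npy, with a log2 difference of 2.01, and Gal, with 1.52, were higher at E13.5 in chromaffin-like cells, where 5.33% of genes were at least 2-fold higher. Sst, with 1.004, was higher in sympathoblast-like cells, where 4.96% of genes were. Cck was lower in bridge-like cells, where 3.36% of genes were. The other differences were 0.65 for Adm, 0.50 for Vip, 0.16 for Cartpt, 0.08 for Penk and -0.88 for Sct. Over 14 other settings the count of 4 ran from 3 to 6. In plate rows A to H alone Gal differed by 0.56 and in rows I to P by 2.45, so the 2-fold difference of Gal was not seen in the former. Sct differed by -1.99 in rows A to H and by -0.04 in rows I to P, and by -1.31 without its highest cells. Npy differed by 2.20 and 1.95, and Cck by -1.79 and -4.13. Other classes added to this. Npy was at least 2-fold higher at E13.5 in all 4 named classes, with 1.92 in SCP-like and 1.64 in sympathoblast-like cells and 0 reads before in bridge-like cells. In bridge-like cells 4 of 7 measured genes were higher, namely Penk, Cartpt, Npy and Adm, against 7.82% of all genes. These values rest on few cells that overlap. At E13.5 Penk had 11 readers among 49 bridge-like cells, and Cartpt, Npy and Adm had 5 each. Of these readers of Cartpt, Npy and Adm, 3, 4 and 3 also read Penk. In chromaffin-like cells Cartpt was higher too, and Sct and Cck were lower, against 3.79% of all genes. In SCP-like cells Sct, Gal and Cck were lower and Npy higher among 4 measured genes, against 5.46% and 8.23% of all genes. The SCP-like class joined clusters of 50 and 27 cells at E12.5 and was a single cluster at E13.5. Age and the make-up of this class thus cannot be told apart in these values. In sympathoblast-like cells Npy and Gal were higher and Penk, at 5.51 and 1.53 CPM, was lower, against 2.99% of all genes in the latter direction.

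Sexes and plate regions moved with some of these values. In E13.5 chromaffin-like cells Npy stood at 542 CPM in male and 209.1 CPM in female cells. It stood at 273.8 CPM in plate rows A to H and 640.2 CPM in rows I to P, read by 62.1% and 86.7% of cells. In E13.5 sympathoblast-like cells Sst stood at 16.97 CPM in 31 male and 105.7 CPM in 87 female cells, read by 19.4% and 32.2%. In male cells alone Sst was lower at E13.5 than at E12.5, by a log2 difference of -0.84. In female cells no such value is given, because the E12.5 plate held only 12 female sympathoblast-like cells. Whether these values follow sex, embryo or plate position was not tested. At E13.5, within male cells alone, the leading class was as above for all 9 genes, and within female cells alone for 7. The other 2, Sct and Cck, had only 17 female bridge-like cells, below the 20 required of a class.

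Clusters of the same class differed in their peptide readers. Of the 2 E13.5 chromaffin-like clusters, the larger had 70 readers of Npy, 43 of Gal and 35 of Penk among 83 cells. The smaller, led by Pkhd1l1, Tac2 and Unc5c, had 18, 4 and 22 among 35. Gal stood at 129.5 CPM in the larger and 3.63 CPM in the smaller cluster, whereas Penk stood at 251.9 and 480.04 CPM. The 2 E13.5 sympathoblast-like clusters were one of 80 cells led by Calcb and Sncg and one of 42 led by genes of dividing cells such as Esco2 and Top2a. Cartpt was alike in both, with 87.5% and 88.1% of cells and 773 and 802 CPM. Sst stood at 112.8 and 17.03 CPM and Vip at 488 and 254.3 CPM. The clusters were made from other genes of the same cells, so these are descriptions.

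Most chromaffin-like and sympathoblast-like cells read several of the 9 genes. Chromaffin-like cells read 2.56 ± 1.14 and 2.98 ± 1.01 genes (mean ± SD over cells) and sympathoblast-like cells 2.47 ± 0.91 and 2.70 ± 1.18. Bridge-like cells read 1.35 ± 0.72 and 1.24 ± 1.03, and SCP-like cells 0.75 ± 0.83 and 0.28 ± 0.53. The E12.5 SCP-like clusters differed, with 1.06 ± 0.84 in the cluster of 50 and 0.19 ± 0.40 in that of 27 cells. The lower SCP-like mean at E13.5 is thus not seen against the latter cluster. At least 3 genes were read by 57.3% (46.8 to 67.3) and 67.8% (58.6 to 76.1) of chromaffin-like cells. None was read by 1 chromaffin-like cell at E13.5 and by 62 of 82 SCP-like cells. The most genes in 1 cell were 5 at the earlier and 6 at the later age, the latter in 2 chromaffin-like cells. Cells with 3 or more did not stand out in the number of genes detected, with medians of 7289.5 and 6636, against 7360.5 and 6635 over all cells.

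**Figure D3:**
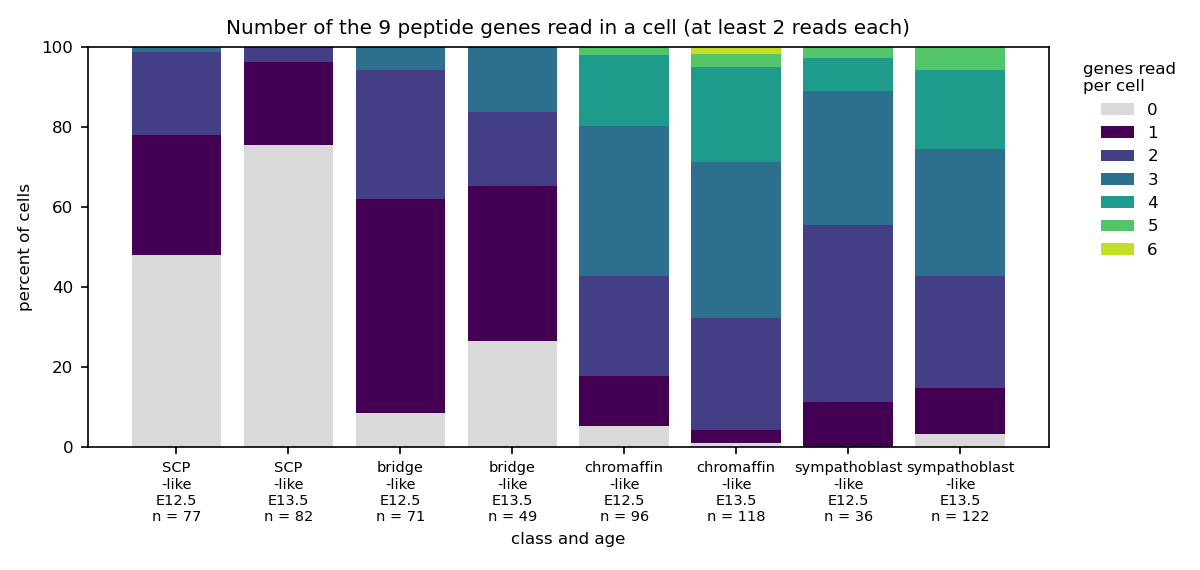
Stacked bars of the percent of cells in each named class and age that read 0 to 6 of the 9 genes. Cells with 3 or more genes make up over 50% of chromaffin-like cells at both ages and of sympathoblast-like cells at E13.5, and cells with none make up 75.6% of SCP-like cells at E13.5.

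Of the 36 possible pairs, 30 met in at least 1 cell at E12.5 and 34 did at E13.5; 3 and 8 met in at least 10% of kept cells. The E12.5 pairs were Penk with Adm in 62 cells (16.3%, 12.7 to 20.4), Sct with Cck in 56 (14.7%, 11.3 to 18.7) and Npy with Adm in 38 (10%, 7.17 to 13.47). Penk with Adm cells were 72.1% of Penk cells and 48.4% of Adm cells, and Sct with Cck cells 39.4% of Sct cells and 48.7% of Cck cells. At E13.5 the widest pairs were Npy with Adm in 110 cells (29.6%, 25.05 to 34.6) and Cartpt with Npy in 90 (24.3%, 19.98 to 28.95). The former were 63.95% of Npy and 70.5% of Adm cells, the latter 60.8% of Cartpt and 52.3% of Npy cells. Cartpt with Adm met in 65 cells, Penk with Adm in 58, Npy with Gal in 54, Gal with Adm in 49, Penk with Npy in 48 and Cartpt with Vip in 48. Sct with Cck, wide at E12.5, met in 7 cells at E13.5, 1.89% of the plate. Vip with Cck and Sst with Cck met in no cell at either age, which allows up to 0.789% and 0.809% of cells.

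Pairs over all cells follow the classes, so shares within a class are given as well. In E13.5 chromaffin-like cells 71.9% of Penk readers and 77.05% of other cells read Npy, and 94.7% and 93.4% read Adm, so Penk readers were close to the rest in both. For Gal and Npy the shares lay further apart: 82.98% of 47 Gal readers and 69.01% of other cells read Npy. At E12.5 28 of 29 Gal readers and 34 of 36 Npy readers in this class read Adm. Of the cells that did not read Gal 82.1% read Adm, and of those that did not read Npy 81.7%. The most frequent full combinations at E13.5 were Npy with Adm alone and Penk, Npy and Adm, in 16 and 16 cells, then Npy, Gal and Adm in 15 and all 4 in 11.

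In sympathoblast-like cells most Sst readers also read Vip. At E12.5 7 of 7 Sst readers read Vip, against 20.7% of the other 29 cells. At E13.5 26 of 35 Sst readers (74.3%) read Vip, against 28.7% of 87 other cells, and 50.98% of Vip readers read Sst. Cartpt was read by 94.1% of Vip readers and 83.1% of other cells. Adm lay on the other side. It was read by 15.4% of Vip readers and 56.5% of other cells at E12.5, and by 13.7% and 43.7% at E13.5. Of E13.5 Sst readers 8.57% read it, and of other cells 40.2%. Sct, with 8 readers in this class at E13.5, was read next to Vip in 7 of them and next to Sst in 7. These counts rest on small groups, and no test was made.

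**Figure D4:**
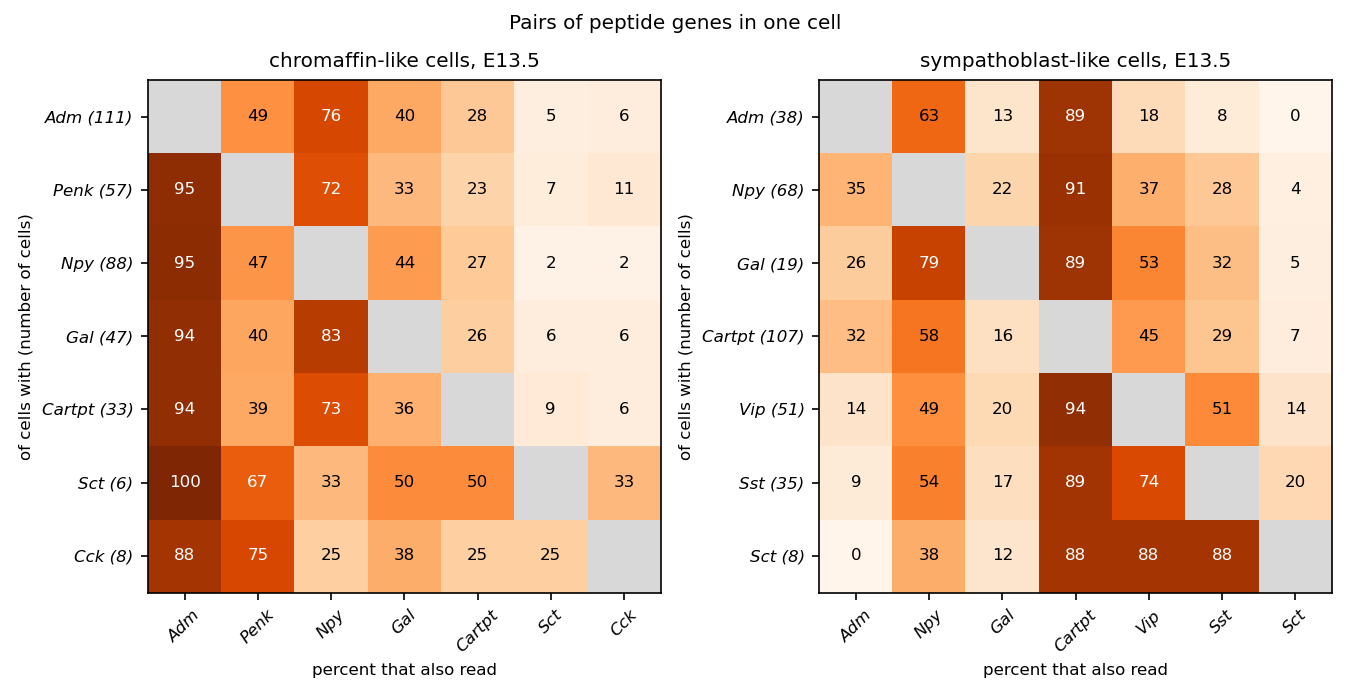
Percent of the readers of the gene named at the left (number of readers in brackets) that also read the gene named below, in chromaffin-like (left) and sympathoblast-like cells (right) at E13.5, for genes with at least 5 readers. Adm is read by most readers of every other gene in chromaffin-like cells, and in sympathoblast-like cells 74.3% of Sst readers read Vip and 8.57% read Adm.

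In bridge-like cells Sct and Cck met in part. At E12.5 16 of 30 Cck readers (53.3%) read Sct, against 78.05% of the other 41 cells, and Sct stood at 54.2 against 109.5 CPM in these groups (54.2 against 97.3 CPM without its highest cell). The shares ran the other way in other E12.5 groups. In SCP-like cells 70.6% of Cck readers and 28.3% of other cells read Sct. The shares were 40.6% and 28.9% in intermediate, 83.3% and 38.9% in unnamed and 20.8% and 15.3% in chromaffin-like cells. In bridge-like cells Penk was nearly separate from Sct. Of Penk readers 1 of 6 and 1 of 11 read Sct, against 72.3% and 47.4% of other cells. Of the 49 E13.5 bridge-like cells 12 read Sct and none of the other 8 genes.

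Readers and non-readers of a gene within its leading class were then compared over listed genes, by summed reads. The line was 2-fold, and genes of at least 5 CPM on either side were counted as measured. Values without the 1 cell of the class highest in the gene named are given where they end such a call or change a value by over 1.5 times. In sympathoblast-like cells, Vip readers had more of the cholinergic genes. At E12.5 3 of 9 measured cholinergic genes were at least 2-fold higher and 0 lower (median log2 0.61), against 7.91% higher and 12.8% lower over all genes (median -0.04). At E13.5 4 of 9 were higher and 0 lower (median 0.59), against 3.7% and 4.87% over all genes (median -0.03). Slc18a3, the vesicular acetylcholine transporter, was higher by 0.61 on the log2 scale at E12.5 and had 267.5 against 107.7 CPM at E13.5. Chat, which makes acetylcholine, had 81.6 against 23.4 CPM, then 34.3 against 13.99 CPM. Slc5a7, the choline transporter, had 67.2 against 30.3 CPM, then 32.4 against 6.17 CPM. All of them were higher in Vip readers at both ages, as was Gfra2, a neurturin co-receptor, with 133.3 against 65.8 CPM, then 117.4 against 49.2 CPM. At E12.5 2 of these values rest on 1 cell. Without the cell highest in each gene, Slc5a7 had 40.8 against 30.3 CPM and Gfra2 104.5 against 65.8 CPM, and 1 in place of 3 genes passed the line, whereas the E13.5 count was 4 as before.

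Vip readers had less of Th, the first enzyme of catecholamine synthesis, with 290.2 against 761 CPM, then 186.96 against 523 CPM. Dbh, the enzyme that makes noradrenaline, differed less, with 1493 against 2595 CPM, then 1663 against 2049.97 CPM. Epas1, the transcription factor HIF-2α, which responds to low oxygen, had 9.44 against 105.5 CPM, then 9.44 against 70.6 CPM. Adm followed the same direction, with 4.58 against 79.5 CPM (4.58 against 51.8 CPM without its highest cell), then 16.4 against 57.002 CPM. The markers that named the classes moved as well. The 10 sympathoblast markers, of which 2 and 2 were at least 2-fold higher and none lower, summed to 13267 against 9518 CPM in readers and other cells, then 15083 against 10769 CPM. The chromaffin markers, of which 3 of 9 measured were lower at each age, summed to 3655 against 6000.4 CPM, then 3547 against 4906 CPM. Slc18a3 is on the former list and Th and Dbh are on the latter, and the part of this in the differences was not tested. Depth did not differ in 1 direction, with median reads of 281374 in Vip readers and 292614 in others at E12.5, then 267327 and 255515. At E13.5 10 Vip readers were male and 41 female, against 21 and 46 of the other cells, whose part was not tested either. Of the E13.5 Vip readers 37 came from the cluster led by Calcb and Sncg and 14 from that led by genes of dividing cells. Of the other cells 43 and 28 did, and the part of this was not tested.

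Sst readers at E13.5 showed differences in the same genes, on cells that overlap with the Vip readers. Of 10 measured cholinergic genes 6 were at least 2-fold higher and 0 lower (median log2 1.68), against 5.89% higher and 5.51% lower over all genes (median -0.02). Slc18a3 had 388 against 91.1 CPM, Chat 50.8 against 11.4 CPM and Slc5a7 50.4 against 4.16 CPM. Th, on the other side, had 114.7 against 484 CPM. The sympathoblast markers summed to 16588 against 11035 CPM and the chromaffin markers to 3442 against 4672 CPM. Of the Sst readers 26 came from the cluster led by Calcb and Sncg and 9 from that led by genes of dividing cells. Of the other cells 54 and 33 did, and the part of this was not tested. Ngfr, the low-affinity neurotrophin receptor, had 71.2 against 24.7 CPM. Calcb, the gene of a calcitonin gene-related peptide, had 108.7 against 0.0468 CPM, and 17.1% of Sst readers and 0% of the others read it. Cartpt readers at E13.5 had 0 of 10 cholinergic genes higher and 4 lower, against 8.68% and 10.4% over all genes, but 1 higher and 1 lower without the cell highest in each gene. The bridge markers, 6 of 7 measured at least 2-fold lower, summed to 359.1 against 941 CPM in readers and other cells. Only 15 cells of the class lacked Cartpt, 13 of them female.

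**Figure D5:**
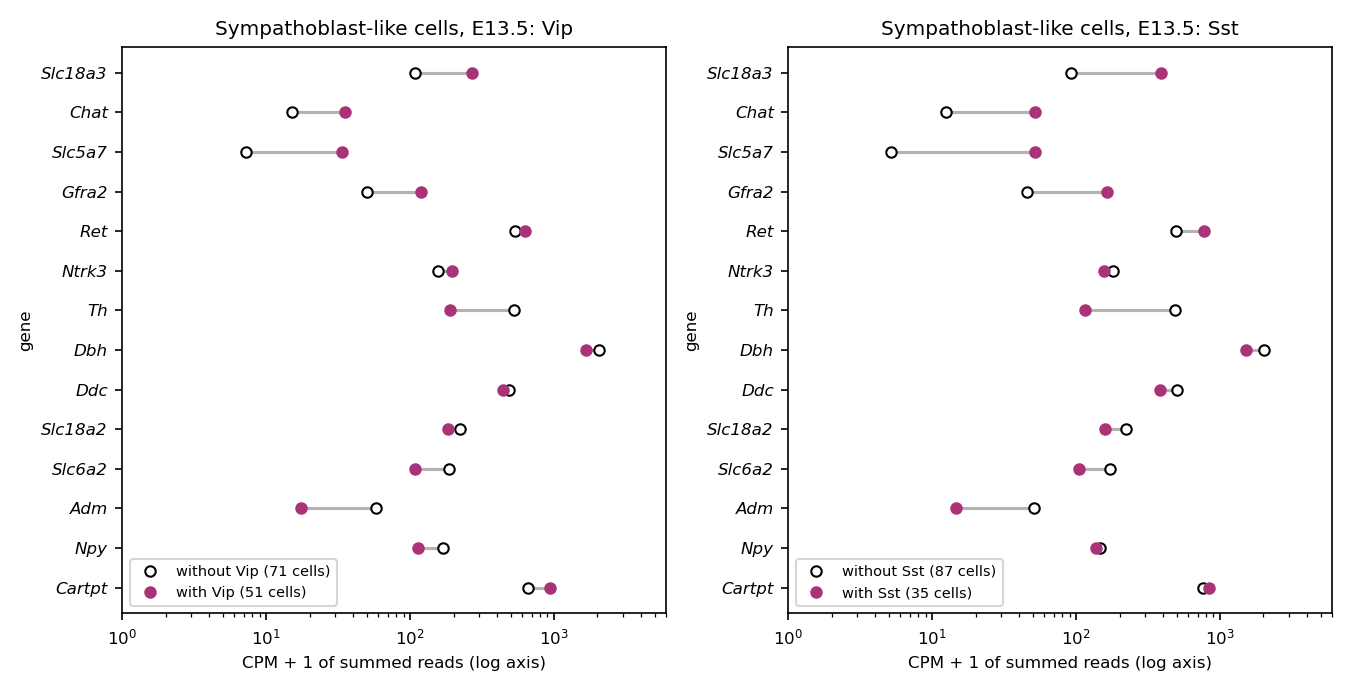
Summed level of 14 genes in E13.5 sympathoblast-like cells that read Vip (left, filled) or Sst (right, filled) and in those that do not (open), as CPM plus 1 on a log axis. Slc18a3, Chat, Slc5a7 and Gfra2 lie to the right and Th and Adm to the left in readers of either gene.

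In chromaffin-like cells, Npy readers had more of Sctr, the secretin receptor, at both ages, with 99.98 against 21.9 CPM, then 150.5 against 40.4 CPM. Scg2, the granule protein secretogranin 2, had 56.3 against 13.4 CPM, then 157.6 against 47.8 CPM. Resp18, a granule protein, had 151.8 against 67.2 CPM, then 264.8 against 87.9 CPM. Pam, which amidates the ends of peptides, had 70.5 against 32.3 CPM, then 151.6 against 70.4 CPM. Pam was under the 2-fold line without its highest cell, with 44.8 against 32.3 CPM, then 140.98 against 70.4 CPM, and so was Resp18 at E12.5, with 131.8 against 67.2 CPM. Of 12 measured granule genes 2 were higher and 1 lower at E12.5 (median log2 0.67), against 4.1% and 4.73% over all genes (median -0.03). At E13.5 4 of 12 were higher and 0 lower (median 0.65), against 6.36% and 5.42% (median -0.02). Of the E13.5 readers 70, and of the other cells 13, came from the larger cluster. The chromaffin markers, 1 of 10 at least 2-fold higher at E13.5, summed to 27308 against 20772 CPM, then 38480.3 against 25242 CPM, in Npy readers and other cells, and the part of this was not tested.

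Penk readers had less Gal at E13.5, with 34.6 against 148.3 CPM. Of the readers 35 came from the larger and 22 from the smaller cluster, and of the other cells 48 and 13. Gal stood higher in the larger cluster, and the part of this was not tested. At E12.5 Gal had 19.7 against 42.9 CPM, but 19.7 against 23.5 CPM without its highest cell, which did not read Penk. The shares of Gal readers lay closer together, at E12.5 with 13 of 46 Penk readers against 16 of 50 other cells, and at E13.5 33.3% against 45.9%. In the noradrenergic list Penk readers were near the rest, with 0 of 9 genes higher and 1 lower at E12.5, against 2.84% and 4.47% over all genes. At E13.5 0 of 10 were higher and 0 lower, against 3.57% and 4.5%. Without the cell highest in each gene these counts were 0 and 0, then 1 and 1. Gal readers had 1 of 9 noradrenergic genes higher and 0 lower at E12.5, against 4.89% and 4.6%, and 0 of 10 higher and 0 lower at E13.5 (1 and 0 without those cells), against 4.55% and 3.99%.

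Adm was missing from 13 of the 96 E12.5 chromaffin-like cells. The other 83 had 6 of 11 measured hypoxia genes at least 2-fold higher and 0 lower (median log2 1.05), against 10.9% higher and 7.16% lower over all genes (median -0.02). Without the cell highest in each gene 5 were higher. Epas1 had 1562 against 602 CPM, Slc2a1, a glucose transporter, 174.6 against 42.7 CPM, and Bnip3, a protein of mitochondrial turnover, 87.1 against 31.1 CPM. The class markers moved with this. Of 9 measured chromaffin markers 4 were at least 2-fold higher in Adm readers and 1 lower, and the list summed to 25082 against 12564 CPM. Th and Dbh, both of that list, had 3972 against 1740.4 CPM and 4841 against 2124 CPM, Chga 2706 against 1142 CPM and Chgb 8169 against 4135 CPM. The sympathoblast markers, 1 higher and 2 lower among 10, summed to 3047 against 4476.9 CPM and the bridge markers to 862 against 1204 CPM. Resp18 had 110.2 against 36.1 CPM, the receptor gene Ret 148.7 against 375.8 CPM, its partner Gfra1 12.51 against 39.8 CPM and Slc18a3 1.51 against 8.37 CPM. Without their highest cell Ret had 148.7 against 256.4 CPM and Gfra1 12.51 against 23.7 CPM, both under the 2-fold line. Slc18a3 then had 0.451 against 8.37 CPM. The part of these marker differences in the hypoxia list was not tested. Edn3, the gene of endothelin 3, had 85.1 CPM in readers, of whom 36.1% read it, and no reads in the others. At E13.5 only 7 cells lacked Adm, too few for the comparison.

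In bridge-like cells at E13.5, the 19 Sct readers had less of the noradrenergic genes than the 30 other cells. Of 8 measured genes 7 were at least 2-fold lower and 0 higher (median log2 -1.72), against 11.7% lower and 10.6% higher over all genes (median 0.01), and 6 were lower without the cell highest in each gene. Th had 13.2 against 91.6 CPM, Gch1, which makes its cofactor, 0.681 against 28.5 CPM, and Dbh 232.99 against 646 CPM. Chgb, chromogranin B, had 69.5 against 1187 CPM. Of the other peptides Penk had 2.498 against 218.5 CPM, Cartpt 1.14 against 124.1 CPM and Npy 0.454 against 31.4 CPM. Single cells carried much of the levels in non-readers. Without its highest cell Th stood there at 54.04 CPM, Gch1 at 18.3, Penk at 135.5, Cartpt at 63.8 and Npy at 16.5 CPM, each still above the readers. The SCP markers summed to 2220.2 against 1105 CPM in Sct readers and other cells, the chromaffin markers to 1399 against 3772 CPM and the sympathoblast markers to 2109 against 4559 CPM, and their part was not tested. At E12.5 0 of 8 noradrenergic genes were higher and 0 lower, against 9.07% and 6.21% over all genes, but Penk again stood lower in Sct readers, with 0.982 against 43.2 CPM (0.982 against 14.8 CPM without its highest cell). The SCP markers then summed to 1286 against 666 CPM.

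Cck readers had 1 of 8 noradrenergic genes higher and 0 lower at E12.5, against 5.21% and 6.46% over all genes. At E13.5 they had 1 of 8 higher and 1 lower, against 8.69% and 12.6%. Th had 71.1 against 36.5 CPM, then 120.4 against 40.8 CPM, but 41.5 against 36.5 CPM, then 30.7 against 40.8 CPM, without its highest cell of each age, which turns the direction at E13.5. Without the cell highest in each gene the E13.5 counts were 0 and 0.

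Genes with a like pattern over all kept cells were ranked by the smaller Pearson r of the 2 ages, on log2(CPM+1) over the 380 kept cells of E12.5 and, apart, the kept cells of E13.5, among 13448 genes. Cells share plates and depth, and classes set much of these values, so they are descriptions. Adm was most like Gnas (0.736 and 0.765), the G protein subunit that raises cyclic AMP, then Ampd3 and Rab27a. Among the genes like Cartpt were Stmn4 (0.614 and 0.718) and Cplx1 (0.558 and 0.686). Vip was most like the transcription factor Ebf1 (0.564 and 0.579), Sst (0.582 and 0.552) and Slc18a3 (0.515 and 0.550). Sst came next to Vip, then Sncg (0.546 and 0.582) and Ebf1. Penk came next to Epas1 (0.484 and 0.486), Chgb and C2cd4b, and Npy next to Gnas, Gch1 and Doc2b (0.427 and 0.526). For Sct only Htr3a, a serotonin receptor channel, passed 0.4 (0.497 and 0.419), and for Gal and Cck no gene did at both ages.

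Genes that process and store peptides were listed apart. Cpe, the carboxypeptidase that trims cut precursors, had 196.3 and 229.8 CPM in chromaffin-like, 365.4 and 414 CPM in sympathoblast-like and 15.8 and 12.1 CPM in SCP-like cells. Pam had 205.4 and 377.6 CPM in sympathoblast-like and 46.9 and 132.02 CPM in chromaffin-like cells. The convertases that cut precursors stood low, with Pcsk1 at 2.58 and 3.64 CPM and Pcsk2 at 1.10 and 5.28 CPM in chromaffin-like cells, and Pcsk2 at 18.1 and 17.98 CPM in sympathoblast-like cells. The 12 granule genes summed to 11007 and 21695 CPM in chromaffin-like, 1501 and 1248 CPM in sympathoblast-like and 222.2 and 154.9 CPM in SCP-like cells. Chga and Chgb, the chromogranin genes, carried most of this. In chromaffin-like cells Chga had 2479 and 4983 CPM and Chgb 7584 and 15323 CPM, and in sympathoblast-like cells 419 and 391 CPM and 320.8 and 92.03 CPM. The other 10 genes summed to 944 and 1388 CPM in chromaffin-like and 761 and 765 CPM in sympathoblast-like cells. Of these 3 were at least 2-fold higher and 3, Scg2, Vgf and Syt4, lower in chromaffin-like cells at E12.5, and 6 higher and 0 lower at E13.5. The share of all genes that differ so between these classes is not given, so nothing is read from these counts.

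Receptors for these peptides were read in part. Of 24 receptor genes found, 3 to 8 had at least 5 CPM in bridge-like, chromaffin-like and sympathoblast-like cells. Sctr had 51.7 and 123.98 CPM in chromaffin-like and 6.12 and 22.02 CPM in sympathoblast-like cells, while the secretin gene itself led in bridge-like cells. Npy2r, a receptor of neuropeptide Y, had 56.5 and 37.8 CPM in sympathoblast-like cells and no reads in chromaffin-like cells at either age. Adcyap1r1, which binds PACAP and, more weakly, vasoactive intestinal peptide, had 174.5 and 209.7 CPM in bridge-like, 207.99 and 204.3 CPM in chromaffin-like, 269.5 and 241.9 CPM in sympathoblast-like and 5.34 and 1.76 CPM in SCP-like cells. Oprd1, the delta opioid receptor that enkephalins bind, had 0.569 and 18.9 CPM in chromaffin-like cells. Sstr2, a somatostatin receptor, was highest in bridge-like cells, with 20.6 and 17.8 CPM.

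Of 47 other peptide genes found, 1 to 4 had at least 5 CPM in any named class, and 22 to 33 had no read there. Edn3 led among them, with 72.8 and 114.1 CPM in chromaffin-like cells. Calcb had 31.6 CPM in E13.5 sympathoblast-like cells and no read in that class at E12.5. Gip, the gene of a gut hormone, had 1.86 and 16.7 CPM in chromaffin-like cells, and Pthlh, the parathyroid hormone-like gene, 13.2 and 9.82 CPM in SCP-like cells.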

How the data were processed

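Polyadenylated RNA of single sorted cells was sequenced by Smart-seq2, per the labels' protocols. The deposited tables hold raw read counts per gene symbol for 384 wells per age. The submitters' processing notes name TopHat2, HTSeq and mm9, with versions and annotation not given in the sources used here. Each of 768 columns was matched to a sample (0 left out), and 0 wells had identical values. RefSeq windows served for promoters.

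Wells of at least 50000 reads were clustered per age on log2(CPM+1) of 2000 variable genes without the 9 genes, listed genes or Rn45s (20 principal components, 15 neighbours, Leiden resolution 1, seed 1). A cluster took the class name with the highest marker score, leading the next by at least 0.1. No doublet caller was run, 1 well per age had both Xist and Y-linked reads, and leaving out the 5% of wells with most genes was an alternative. Folds add 1 CPM. Calculations used Python 3.11.15, scikit-learn 1.9.0, leidenalg 0.10.2 and scipy 1.17.1, and were tested on simulated data.

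The genes and lists were chosen with earlier results of these data known. Named were the 9 genes, up to 3 genes most like each (r at least 0.4 at both ages), up to 4 highest members of each list, and list members at least 2-fold different between readers and non-readers at both ages. Others were named after their values were seen. A gene that the rule names for Cartpt is not reported here. Of 231 listed genes, 229 were found.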

Additional observations from a re-analysis of the deposited data

How the results depend on the processing

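No difference was tested, since each age is 1 plate. Leaving out a replicate was not run for the same reason. No paired analysis was possible because wells of the 2 plates share only positions and there is 1 plate per age.

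Pairs of genes in at least 10% of cells numbered 3 at E12.5, but 6 with 1 read as the threshold, 1 with 50 CPM and 5 in male cells alone. At E13.5 they numbered 8, but 4 with 50 CPM. In female cells alone 3 in place of 6 genes were at least 4-fold above every other class at E12.5, 1 in place of 3 was read by at least 50% of its class, and 4 in place of 9 kept their leading class, because sympathoblast-like and bridge-like cells fell under 20 there. The age difference of Sst turned from 1.00 to -0.84 (log2) in male cells, and the cause was not tested. Over all genes and settings together, 10.6% of the recomputed age differences (15) moved by more than 1.5-fold, and 10.6% of the recomputed shares of readers (31) lay outside the interval of the reported share. Age differences at least 2-fold numbered 4 and ran from 3 to 6. That of Gal was 0.56 in plate rows A to H in place of 1.52, and that of Sct -0.04 in rows I to P in place of -0.88. Without the wells with most genes, the E12.5 sympathoblast-like class held 91 in place of 36 cells, and 32.97% of them read Cartpt and 13.2% Vip. Adm, Npy and Penk had the same leading class in all 19 settings at both ages. Joining the intermediate cluster to chromaffin-like cells, leaving out 1 SCP-like cluster, and leaving out the highest cell of a gene were chosen after seeing the data.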
